A study of Mus musculus with 8 samples.

Results

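Of 23980 barcodes listed in 8 single-cell libraries of mouse 4T1 tumours, 696 held 200 to 5000 UMIs and had no entry in the authors' cell annotation. A UMI (unique molecular identifier) marks 1 captured RNA molecule, and a barcode marks the molecules captured together in a droplet. These 696 barcodes, called unannotated barcodes below, were chosen by their total UMI count and by the absence of their barcode and library from the annotation. The annotation names 654 barcodes, of which 325 are tumour cells, 154 T cells, 109 macrophages and 66 NK cells. Another 22525 barcodes without a name held under 200 UMIs and are called low-count barcodes, and 105 held over 5000.

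4T1 is a mouse mammary carcinoma line, and the tumours grew for 10 days under the skin of Balb/c mice. Tumour pieces were dissociated for 1 h with a Bacillus licheniformis protease in 4 conditions of 2 libraries each: 37C with inhibitor, 37C with no inhibitor, 4C with inhibitor and 4C with no inhibitor. The inhibitor is named in the protocol as actinomycin D at 2 nM, which blocks transcription. Each condition was 1 suspension, pooled from 6 pieces of tumour from different mice, and libraries A and B are aliquots of it. No p-value below therefore measures the spread between animals. In the fits of unannotated barcodes with all 4 conditions it measures the spread between aliquots. In the permutation tests of library measures and the fits that compare classes, the spread also holds differences between conditions. Heated tubes turned on a gentleMACS Octo instrument and cold tubes on another one, so that temperature and instrument cannot be told apart. Red cell lysis, debris removal and dead-cell removal were common to all conditions.

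In droplet sequencing a barcode receives RNA from any cell caught with it and also from RNA released into the suspension by broken cells. Barcodes of few molecules can therefore hold a small or damaged cell, free RNA, or both, and a cell of a rare kind may lack a name when an annotation covers only the common kinds. Macrophages, lymphocytes, granulocytes and fibroblasts are known residents of mammary tumours. Resident macrophages take up and degrade debris, NK and cytotoxic T cells carry granzymes, and neutrophils carry the calcium-binding proteins S100a8 and S100a9.

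Unannotated barcodes numbered 117 and 206 at 37C with inhibitor, 86 and 138 at 37C with no inhibitor, 17 and 28 at 4C with inhibitor, and 29 and 75 at 4C with no inhibitor. No library at 4C had as many as the lowest one at 37C, and the means were 136.8 ± 50.9 at 37C against 37.2 ± 25.7 at 4C (SD over 4 libraries each). The two-sided exact permutation test gave p = 0.0286, the smallest that 70 arrangements allow, and 0.143 after Benjamini-Hochberg adjustment over 5 library measures. The number did not pass the adjusted threshold of 0.05. Depth moved with temperature, from 433245 up to 801510 UMIs per library at 37C, against 55698 up to 186002 at 4C, and its part in this number was not tested.

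As a share of all barcodes of 200 to 5000 UMIs, those with no annotation made up 54.5% ± 7.64 at 37C, against 37.7% ± 8.44 at 4C (SD over 4 libraries each; exact permutation p = 0.0571, adjusted p = 0.143). They held 13.7% ± 4.52 of library UMIs at 37C and 10.7% ± 3.49 at 4C (exact p = 0.4, adjusted p = 0.667). Their mitochondrially encoded RNA made up 0.136% ± 0.0552 and 0.122% ± 0.0735 of their UMIs (exact p = 0.743). None of these 3 shares passed the test. Genes detected per barcode after thinning to 200 UMIs were 165.9 ± 3.12 at 37C and 164.8 ± 6.02 at 4C, a difference of 1.12 genes (exact p = 0.743), whose sign turned to -0.25 without 37C with inhibitor B and to -0.792 without 4C with inhibitor A.

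**Figure D1:**
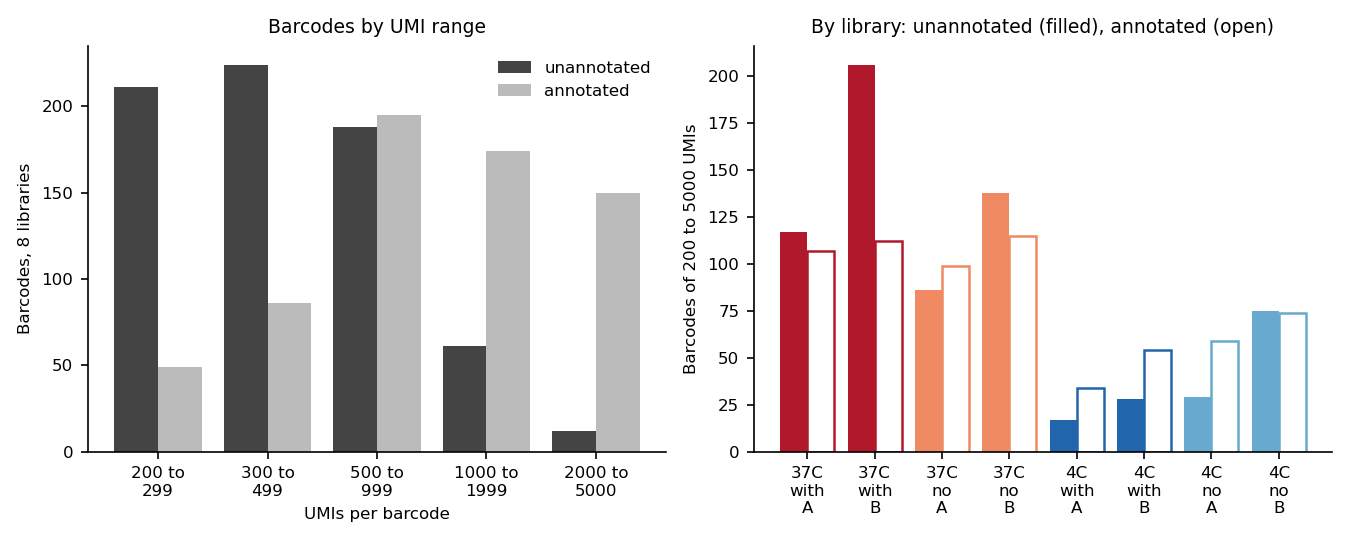
Bars give the number of unannotated and annotated barcodes, by UMI range over all libraries on one side and by library on the other (filled for unannotated, open for annotated). Unannotated barcodes are 81.2% of those from 200 to 299 UMIs and 7.41% of those from 2000 to 5000 UMIs.

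Low totals prevailed among them, although annotated cells reached as low. Unannotated barcodes had a median of 408 UMIs and 289.5 genes, annotated cells 993.5 UMIs and 669.5 genes, and low-count barcodes 26 UMIs and 24 genes. From 200 to 299 UMIs, 211 barcodes had no annotation and 49 had one, and from 300 to 499 UMIs the numbers were 224 and 86. From 500 to 999 UMIs, 188 had none and 195 had one, so the 2 classes were nearly equal. Above that, 61 and 174 barcodes fell between 1000 and 1999 UMIs, and 12 and 150 between 2000 and 5000. Total UMIs therefore did not separate the classes, since annotated cells ranged from 200 to 4963 UMIs. Gene number did not separate them either: the annotated cell with fewest genes had 171, and 43 unannotated barcodes had fewer, the lowest with 79. At an equal 200 UMIs, the median was 167 genes in unannotated barcodes, against 173 in tumour cells, 172 in T cells, 168 in macrophages and 170 in NK cells.

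At the edges of the rule, 114 unannotated and 27 annotated barcodes held 200 to 249 UMIs, while just below, from 150 to 199 UMIs, 180 were unannotated and 0 annotated. From 4001 to 5000 UMIs there were 2 unannotated and 28 annotated barcodes, and from 5001 to 6000 UMIs there were 25 unannotated and 0 annotated. The annotation thus held no barcode on the far side of either edge.

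A barcode can also be a misread copy of another one in the same library. The barcodes printed here have 18 bases in 3 blocks of 6, and the 4 pairs below are all the cases in which an unannotated barcode lay 1 base from an annotated one or from one of over 5000 UMIs. The unannotated barcode stands above its neighbour in each pair, and the capital marks the base that differs, counted from 1 at the 5′ end.
37C with inhibitor A, unannotated: tactttAggatcatatac
37C with inhibitor A, neighbour: tactttGggatcatatac
37C with inhibitor B, first unannotated: atTgatgctgagctgtgg
37C with inhibitor B, its neighbour: atAgatgctgagctgtgg
37C with inhibitor B, second unannotated: tTttattaccgaaagcca
37C with inhibitor B, its neighbour: tAttattaccgaaagcca
4C no inhibitor B, unannotated: Tagtctcctctagcgaat
4C no inhibitor B, neighbour: Aagtctcctctagcgaat

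From neighbour to unannotated barcode the changes are G7A, A3T, A2T and A1T, in the order printed. The unannotated barcodes held 290, 1257, 1375 and 375 UMIs, against 15429, 8833, 6335 and 774 in their neighbours, and the last neighbour is an annotated tumour cell. These 4 make up 0.575% of the 696. Among annotated cells, 63 (9.63%) had such a neighbour. Between libraries, 18 unannotated barcodes (2.59%) were also listed elsewhere, none of them with 200 UMIs there, against 12 annotated cells (1.83%) and 638 (2.66%) of all listed barcodes.

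The RNA of the unannotated barcodes was led by Gm42418, a predicted non-coding gene whose locus overlaps ribosomal RNA sequence (GRCm38 chr17:39846958-39848788), then by Lgals1 (galectin-1), Rplp1, Actb, B2m, S100a6 and Vim. Of the 20 genes of highest pooled level, 13 encode ribosomal proteins or the ribosome-bound protein Rack1. Gm42418 took 5.16% and 4.26% of their UMIs at 37C with inhibitor, 4.89% and 6.9% at 37C with no inhibitor, 4.03% and 5.25% at 4C with inhibitor, and 3.12% and 3.04% at 4C with no inhibitor. In annotated cells it took 1.94% to 2.18%, and in low-count barcodes 5.52% to 10.7%. The unannotated barcodes lay above the annotated cells in all 8 libraries, a description and not a test, since the annotation may rest on gene values.

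The Gm42418 share varied strongly from barcode to barcode. Its median was 3.97% in unannotated barcodes (quartiles 2.51% and 6.05%, highest 78.8%), 1.92% in annotated cells (quartiles 1.26% and 2.88%, highest 8.63%) and 6.67% in low-count barcodes. More than 10% of UMIs came from this gene in 71 unannotated barcodes and in 0 annotated cells (of 654, which allows a share of up to 0.459% by a floor of 3 counts). Just inside the lower edge, from 200 to 249 UMIs, its pooled share of the UMIs of unannotated barcodes was 4.38%, and just below the edge, from 150 to 199 UMIs, 5.29%. Just inside the upper edge the pooled share was 1.99% and just above it 1.52%.

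**Figure D2:**
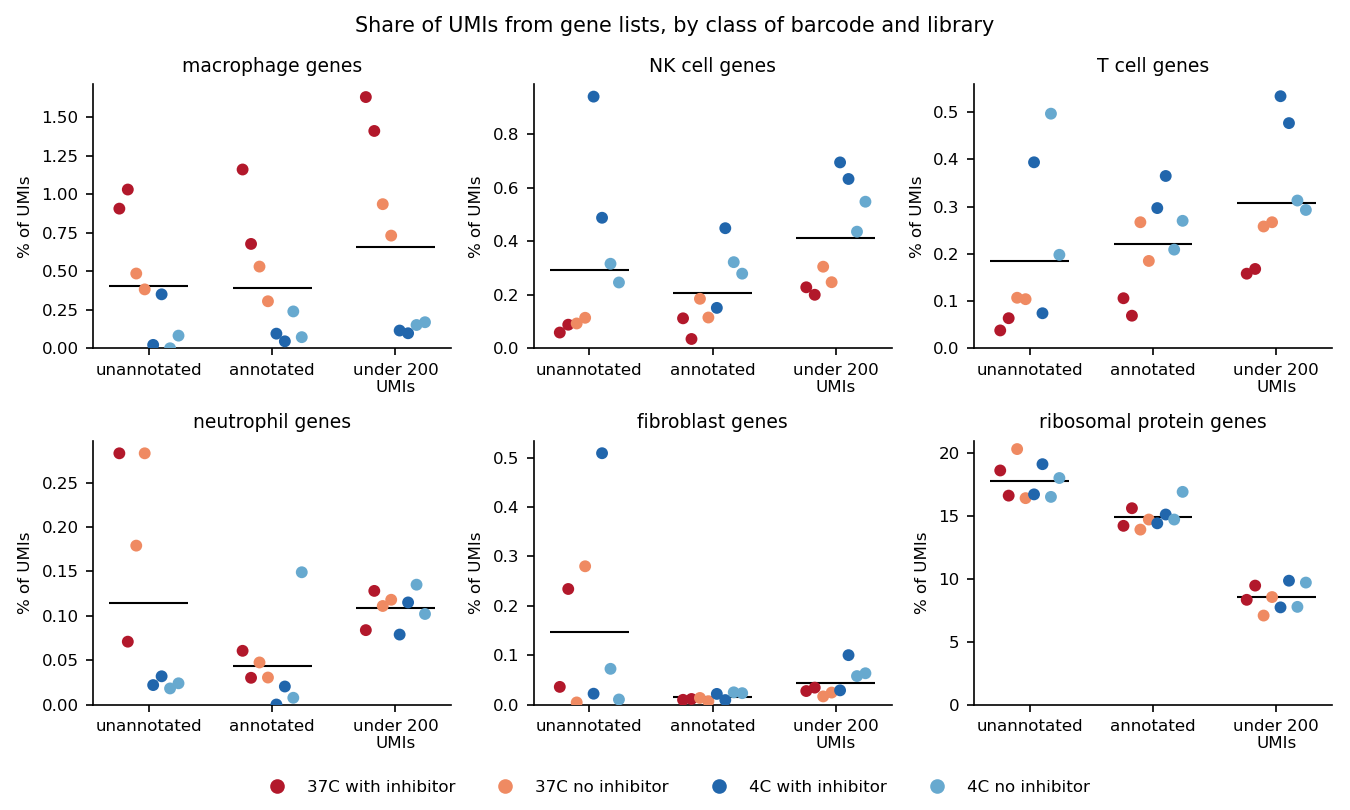
Percent of UMIs from 6 gene lists in unannotated barcodes, annotated cells and barcodes under 200 UMIs, where each point is 1 library, coloured by condition, and the line is the mean of 8. Macrophage genes reach their highest share at 37C and NK genes at 4C in each class, and ribosomal protein genes are lowest in barcodes under 200 UMIs.

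Ribosomal protein genes, part of the translation machinery, made up 17.8% ± 1.44 of the UMIs of unannotated barcodes, 14.9% ± 0.956 in annotated cells and 8.55% ± 1.02 in low-count barcodes (SD, n = 8 libraries). Mitochondrially encoded RNA was low everywhere, with pooled shares of 0.139%, 0.0979% and 0.241%. The list of nuclear-retained RNAs took 4.96%, 2.14% and 8.23%. In unannotated barcodes 18598 of its 19002 UMIs came from Gm42418, whose locus overlaps ribosomal RNA sequence, so these shares cannot be read as nuclear RNA. On both of these lists the pooled share of unannotated barcodes lay between those of the other classes, and on ribosomal proteins their mean lay above both. For mitochondrially encoded RNA only tumour cells (0.0678%) lay below the unannotated barcodes. T cells (0.148%), macrophages (0.159%) and NK cells (0.145%) lay slightly above them, and the order of the classes varied between libraries.

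Against low-count barcodes, tested in 8 libraries with library as a block, unannotated barcodes had higher levels of most ribosomal protein genes and of the stromal and epithelial list genes tested, and lower levels of most NK genes and of Neat1 and Malat1. The comparison is between barcode sums, so that fewer cells of a kind and less RNA per cell cannot be told apart. Of 2497 genes tested, 991 (39.7%) differed with edgeR's quasi-likelihood test at a Benjamini-Hochberg adjusted p under 0.05, 432 higher and 559 lower. That split rests on the scaling: with RLE size factors in place of TMM it was 268 higher and 852 lower, and the median log2 fold change of all genes moved to -0.43, against -0.17. Directions below are the sign of the log2 fold change under TMM scaling, and the median of all genes was not subtracted.

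Ribosomal protein genes were higher in 66 of 75 tested, with 0 lower and a median log2 fold change of 0.84, against -0.17 over all genes. The tested genes of the fibroblast list (4 of 10), the pericyte list (3 of 6) and the tumour epithelial list (3 of 12) were all higher. Genes had to pass a count filter, and a gene could pass through the class in which it is high. The whole pericyte list had 155 UMIs in unannotated and 42 in low-count barcodes. The shared direction of the tested genes is therefore no separate support for a rise of these lists. Col1a1, a chain of type I collagen, had 561.7 CPM (counts scaled to 1000000 UMIs of the class, pooled) in unannotated and 99.5 CPM in low-count barcodes (log2 2.01, adjusted p = 5.13e-10). Krt18, an epithelial keratin, had 984.9 and 354.7 CPM (log2 1.14, adjusted p = 1.59e-05). Pdgfra, a gene of the fibroblast list with too few counts to be tested, went the other way, with 39.2 and 70.7 CPM. The largest increases were in Serping1, a complement inhibitor (91.4 against 5.77 CPM, log2 3.88, adjusted p = 4.93e-07), Gpx3, a secreted glutathione peroxidase (156.7 against 15.9 CPM, log2 3.33), the kallikrein Klk1 (log2 3.18), the smooth muscle genes Tagln (2.82), Acta2 (2.63) and Des (2.52), and Tgfb2, Fstl1, Bgn and Col6a3 (2.33 to 2.53). Matrix and contractile genes of stromal cells formed most of this group, and a few barcodes held much of them: in a fit without the clusters 10 and 11 described below, chosen after seeing the data, 953 genes were called (345 higher, 608 lower), Gpx3 kept its call (log2 3.29), and the other 9 named increases had too few counts to be tested. Gpx3 rests on few barcodes too: 36 of its UMIs lay in 3 barcodes of cluster 5, which that fit kept. Its level was 1511 CPM in cluster 5 and 66.9 CPM in the other unannotated barcodes.

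Among the named genes the largest decrease was in Kif3a, a kinesin motor subunit, with 15.7 CPM in unannotated and 703.7 CPM in low-count barcodes (log2 -5.10, adjusted p = 5.50e-34). Of 6 genes tested from the list of nuclear-retained RNAs, Gm42418 among them, 3 were lower, 1 (Gm26917, log2 0.78, adjusted p = 0.0282) was higher and 2 were not called. Gm26917 lost its call with RLE size factors (adjusted p = 0.126) and without 37C with inhibitor A (0.844) or B (0.342). Neat1, the RNA scaffold of nuclear paraspeckles, had 222.0 and 1908 CPM (log2 -2.91, adjusted p = 1.13e-30), and Malat1, which stays in nuclear speckles, 169.8 and 746.9 CPM (log2 -1.94, adjusted p = 2.38e-11). Gm42418 was lower as well (log2 -1.01, adjusted p = 1.22e-05). Grik4 (log2 -4.40), Cadm1 (-4.29), Khdc4 (-3.94), Cpsf7 (-3.58), Leng8 (-3.48), Firre (-3.37), Hjurp (-3.30) and Mx1 complete the list of largest decreases. None of the 20 named genes lost its call in any fit without 1 library in which it was tested. Some were tested in few of these fits: Des in 2, Tgfb2 in 3, Klk1 in 4, and Khdc4 and Mx1 in 5. Over all alternatives in which they were tested, Des lost its call in 3 of 6, Tgfb2 in 3 of 7, Klk1 in 1 of 8 and Acta2 in 1 of 10.

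Immune lists differed in direction. Of all 2497 genes tested 39.7% were called, 432 higher and 559 lower, and the 2 calls among 6 neutrophil genes lie near that share. Of the NK genes 7 of 8 were lower in unannotated than in low-count barcodes, as were 6 of 12 macrophage genes and 5 of 9 T cell genes, with 0 higher. Of 6 neutrophil genes 2 were higher (G0s2, adjusted p = 0.00429, and Mmp9, log2 1.48, adjusted p = 1.80e-04) and 0 lower, of 2 dendritic cell genes 1 was higher (Fscn1, log2 1.45), and of 5 mast cell or basophil genes 3 were lower and 1 higher (Mcpt8, log2 1.72, adjusted p = 3.46e-04). Without clusters 10 and 11 Mcpt8 lost its call (log2 0.61, adjusted p = 0.344) and G0s2 had too few counts to be tested, and with DESeq2 G0s2 had an adjusted p of 0.0798. Lyz2, the lysozyme of myeloid cells, had 1667 CPM in unannotated and 3035 CPM in low-count barcodes (log2 -1.56, adjusted p = 3.44e-09), and Nkg7, a cytotoxic granule protein, 182.9 and 442.7 CPM (log2 -1.10, adjusted p = 2.05e-04). Mitochondrially encoded genes were lower in 5 of 6 and interferon genes in 6 of 12, with 1 interferon gene (Bst2) higher. Pooled over libraries, neutrophil genes took 0.163% of UMIs in unannotated and 0.108% in low-count barcodes, and dendritic cell genes 0.0415% and 0.0224%.

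The profile of the unannotated barcodes, pooled over libraries, was most like that of annotated cells pooled over types, with a Spearman correlation of 0.865 across 4024 genes. Against single types it was 0.716 (tumour cells), 0.618 (macrophages), 0.458 (T cells) and 0.415 (NK cells). Against low-count barcodes it was 0.616. Genes are not independent, and the profiles differ in depth and share libraries, so these values only describe.

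Each barcode was also assigned to the closest of 5 profiles, the 4 annotated types and the low-count barcodes, by likelihood after thinning to 200 UMIs, with profiles built from the other 7 libraries. This step was chosen after values had been seen. Tumour cells were closest for 367 unannotated barcodes (52.7%), low-count barcodes for 182 (26.1%), macrophages for 74 (10.6%), T cells for 48 (6.9%), and 25 (3.59%) were closest to NK cells. Annotated cells fell to their own type for all 325 tumour cells, and for 95.4% of macrophages, 92.2% of T cells and 77.3% of NK cells. Without Gm42418 the unannotated numbers were 385, 155, 79, 51 and 26. Most of the unannotated barcodes were thus closer to the profile of a named type, tumour cells first, than to the low-count profile of other libraries. Low-count RNA differed between libraries: its macrophage genes took 1.63% at 37C with inhibitor A and 0.0974% at 4C with inhibitor B. No low-count barcode was assigned as a control, so likeness to the free RNA of the same library was not tested.

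**Figure D3:**
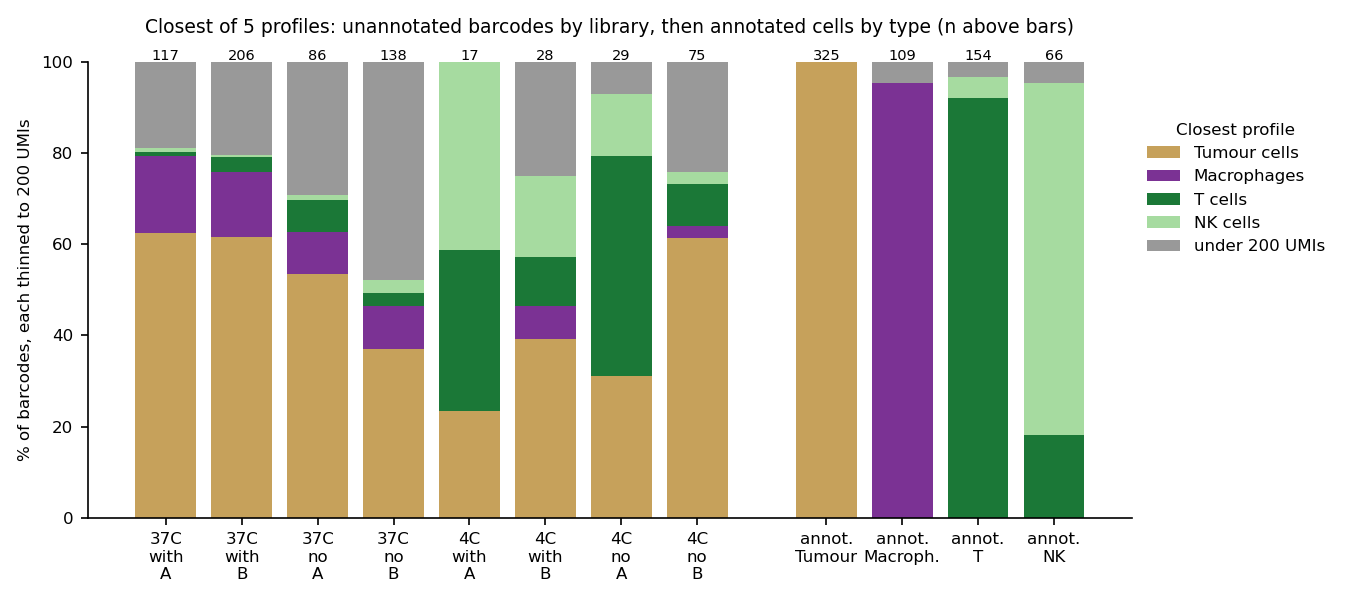
Stacked bars give the percent of barcodes closest to each of 5 profiles, for unannotated barcodes by library and then for annotated cells by type, with the number of barcodes above each bar. T and NK profiles together take 76.5% of the 17 barcodes at 4C with inhibitor A and 1.71% of the 117 at 37C with inhibitor A.

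By temperature, macrophages were the closest profile for 12.8% of 547 unannotated barcodes at 37C and 2.68% of 149 at 4C, T cells for 3.29% and 20.1%, and NK cells for 1.28% and 12.1%. Tumour cells were closest for 54.3% and 47% and low-count barcodes for 28.3% and 18.1%. Libraries differed within a group: low-count barcodes were closest for 29.1% and 47.8% at 37C with no inhibitor and for 18.8% and 20.4% at 37C with inhibitor. T cells were closest for 48.3% at 4C with no inhibitor A and for 9.33% in its aliquot B.

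Marker lists gave a second view. A barcode was taken to carry a list when at least 3 UMIs came from at least 2 of its genes. No list was carried by 363 unannotated barcodes (52.2%), 1 list by 269, and 2 or more by 64 (9.2%), against 10.4% of annotated cells with 2 or more.

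The macrophage list (Lyz2, C1qa, Csf1r, Apoe, Arg1 and others) was carried by 207 unannotated barcodes, 29.7% (95% Clopper-Pearson interval 26.4% to 33.3%, counting error only). It was carried by 84.4% of annotated macrophages, 3.69% of tumour cells, 0.649% of T cells, 1.52% of NK cells and 1.52% of low-count barcodes. At 200 UMIs each, 13.5% of unannotated barcodes and 70.6% of macrophages carried it. By library it was carried by 56.4% and 49% of unannotated barcodes at 37C with inhibitor, 27.9% and 9.42% at 37C with no inhibitor, 0% and 7.14% at 4C with inhibitor, and 0% and 1.33% at 4C with no inhibitor. In all, 204 of its 207 carriers came from 37C. Macrophage genes moved the same way in low-count barcodes, where they took 1.63%, 1.41%, 0.935% and 0.731% of UMIs at 37C and 0.0974% to 0.169% at 4C, and the part of that RNA in the carrying was not tested.

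Macrophage RNA was also found in barcodes that otherwise read as tumour. Of the 367 unannotated barcodes closest to tumour cells, 93 (25.3%, median 471 UMIs) carried the macrophage list, against 12 of 325 annotated tumour cells (3.69%, median 1359 UMIs). At 200 UMIs each the shares were 4.36% of those barcodes and 0% of the tumour cells. At 37C with inhibitor the numbers were 36 of 73 and 47 of 127, at 37C with no inhibitor 9 of 46 and 1 of 51, and at 4C none of 70.

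The tumour epithelial list (keratins, Epcam, claudins) was carried by 56 unannotated barcodes (8.05%), 43.1% of tumour cells, and 0% of T cells, macrophages and NK cells. The T cell list was carried by 35 (5.03%), against 70.8% of T cells, and the NK list by 33 (4.74%), against 83.3% of NK cells. After thinning, 0.287% of unannotated barcodes and 1.23% of tumour cells carried the epithelial list, so it has little reach at this depth.

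Lists of cell kinds outside the annotation followed. The mast cell or basophil list was carried by 41 (5.89%), of which 34 came from 37C with inhibitor B, and by 12 annotated cells. Of these 12 cells, 9 are named macrophages (8.26% of that type) and 3 tumour cells (0.923%). Once thinned, 1.72% of unannotated barcodes and 6.42% of annotated macrophages carried it, so this list was not confined to barcodes without a name. The neutrophil list was carried by 17 (2.44%), 5 and 5 at 37C with inhibitor, 4 and 3 at 37C with no inhibitor, and none at 4C, and also by 14.7% of annotated macrophages. The fibroblast list was carried by 13 (1.87%), against 0.615% of tumour cells and 0% of the other 3 types. Pericyte genes were carried by 5, dendritic cell genes by 3 and B cell genes by 2. Endothelial and platelet lists were carried by 0 of 696, which allows a share of up to 0.431% by the same floor.

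Clusters of the unannotated barcodes alone (11 at the resolution used) were read by their leading genes, which define them and are therefore no test. Cluster 1, with 163 barcodes, was led by Lyz2, Apoe, Pf4 and Arg1 with the complement genes C1qc and C1qa, and is called macrophage-like. It took 40.2% of the unannotated barcodes at 37C with inhibitor, 11.6% at 37C with no inhibitor, 2.22% at 4C with inhibitor and 5.77% at 4C with no inhibitor. Gzmg, a granzyme, and the chemokine gene Cxcl3 stood among its leading genes too (with UMIs in 5 and 15 of its barcodes), and 46% of its barcodes were closest to tumour cells in the profile assignment, against 29.4% closest to macrophages.

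Lymphocyte genes led clusters 4 and 8. They are called by these genes, since markers of both T and NK cells stood in cluster 4 and Trbc2 was the only list marker leading cluster 8. Cluster 4 (78 barcodes; Ccl5, Gzma, Nkg7, Ms4a4b, Cd3g) took 4.64% of unannotated barcodes at 37C with inhibitor, 11.2% at 37C with no inhibitor, 33.3% at 4C with inhibitor and 22.1% at 4C with no inhibitor. Cluster 8 (40 barcodes) was led by the granzymes Gzmf, Gzmd and Gzmc with Trbc2, a T cell receptor constant gene. Few of its barcodes held these granzymes: Gzmf had UMIs in 3, Gzmd in 3 and Gzmc in 4, against 12 for Trbc2. Cluster 6 (62 barcodes) was led by Klk1 and the MHC class II genes H2-Eb1, H2-Aa and H2-Ab1, which present antigen, with Cd74. Klk1 had UMIs in 6 of its barcodes and H2-Ab1 in 22.

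Cluster 10, with 28 barcodes, was led by Col1a1, Col1a2, Col3a1, Igfbp7, Bgn and Postn, all matrix genes, and is called fibroblast-like. It came from 4, 12, 1 and 5 barcodes of the libraries at 37C and 0, 2, 1 and 3 of those at 4C, and Tagln and Acta2 of smooth muscle were among its leading genes. Its Col1a1 level was 7667 CPM, against 47.6 CPM in the other unannotated barcodes. Only some of its barcodes bear the name out: 11 of the 28 carried the fibroblast list, and tumour cells were the closest profile for 57.1% and low-count barcodes for 39.3%. At the lower resolution of 0.5, 11 stayed together and 15 and 2 fell into larger clusters. Whether the 11 that stayed together are the list carriers was not tested. Clusters 2, 3, 5, 7 and 9 (312 barcodes together) were led by Mgp and Slpi, Nhp2 and Nme1, Gpx3, Tbrg1 and Gm42418, and Gm26917 and Krt8, and tumour cells were the closest profile for 63.5% to 88.8% of each. Gpx3 had UMIs in only 3 barcodes of cluster 5, and Gm26917 in only 5 of cluster 9.

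Cluster 11 held 13 barcodes, 3, 3, 3 and 4 in the libraries at 37C and 0 in those at 4C. The chemokines Ccl3 and Ccl4, S100a9, S100a8, Il6, Il4 and Cxcl2 led it, with 46669 CPM of Ccl3 and 64064 CPM of Ccl4. It is left unnamed, since 2 sets of genes lay in different barcodes: 5 of the 13 had at least 5 UMIs of S100a8 and S100a9 together, 5 had Il4 (interleukin 4), 4 had at least 2 UMIs of Mcpt8, a basophil protease, and 3 had both Il4 and Mcpt8. No barcode with those S100a8 and S100a9 counts had Il4 or 2 UMIs of Mcpt8.

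A few barcodes carried most of the RNA of these genes. Of 70 Il6 UMIs in all unannotated barcodes, 50% lay in 1 barcode and 95.7% in 5. Of 371 Ccl3 UMIs, 33.4% lay in 1 barcode and 81.4% in 5, and of 226 S100a9 UMIs 34.5% and 80.5%. Cluster 11 held 97.1% of Il6, 93% of Il4, 88.9% of Ccl3, 75.2% of Ccl4, 77% of S100a9 and 66.5% of Cxcl2. The same held for collagens, with 80.9% of 215 Col1a1 UMIs and 82.7% of 110 Col3a1 UMIs in 5 barcodes, and for Gzmf, with 87.5% of 168 UMIs. The lymphocyte genes Ccl5 and Gzma were spread more widely: the 5 highest barcodes held 32.9% of 316 Ccl5 UMIs and 27% of 226 Gzma UMIs. Library values of these genes therefore rest on unequal numbers of barcodes.

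**Figure D4:**
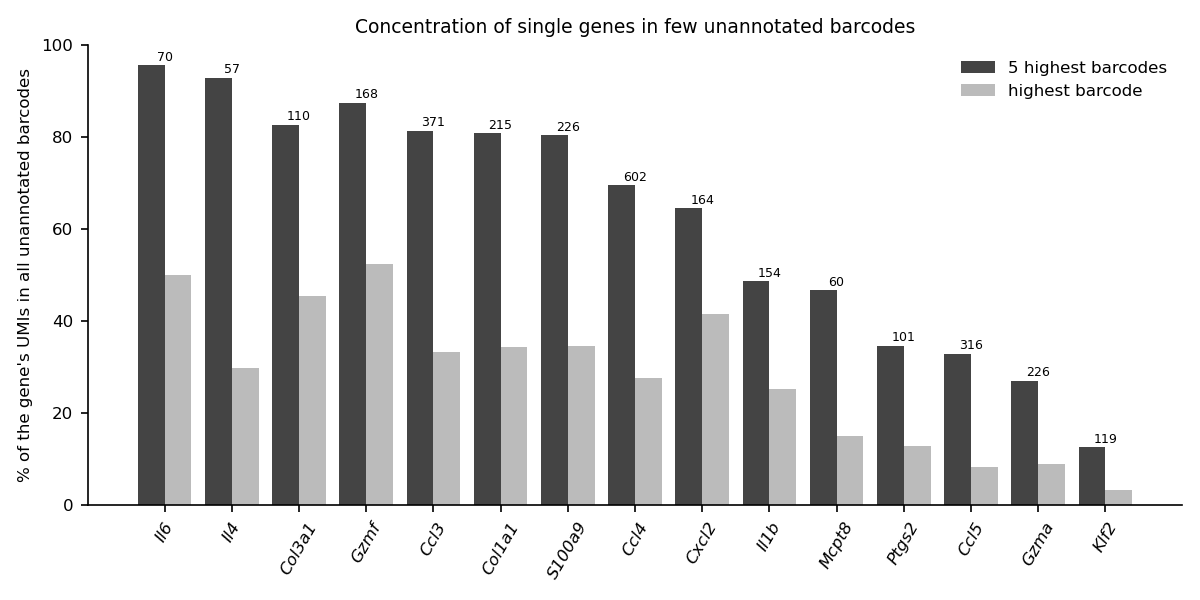
Bars give the percent of a gene's UMIs in the 696 unannotated barcodes that lay in the 5 highest barcodes (dark) and in the highest (light), with the number of UMIs above each pair. Il6 (95.7% in 5) and Il4 (93%) stand at the top, and Klf2 (12.6%) at the bottom.

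Compared with annotated cells, again as a description, unannotated barcodes stood highest in collagens and inflammatory chemokines and lowest in mast cell proteases. Col3a1 (GRCm38 chr1:45311538-45349706) had 110 UMIs in unannotated barcodes and 0 in annotated cells, at least 86.6-fold higher per UMI by a floor of 3 counts over all annotated cells. Col1a1 averaged 609.2 ± 771.6 CPM in unannotated barcodes and 12.5 CPM in annotated cells (SD, n = 8), a ratio of 48.8, and Col1a2 348 ± 468.8 and 6.14 CPM, a ratio of 56.7. Gzmf averaged 425.7 and 22.2 CPM, Ccl3 837.2 ± 1314 and 75.3 CPM, and Ccl4 1365 ± 2128 and 190.4 CPM. The matrix genes Bgn and Igfbp7 and the chemokine Cxcl2 had ratios of 6.94 to 13.5. Without 1 library in turn, a step chosen after seeing the data, the ratio was 5.67 for Bgn and 5.46 for Igfbp7 without 4C with no inhibitor A, and 20.4 for Igfbp7 without 4C with no inhibitor B. For Cxcl2 it was 2.46 without 37C with no inhibitor B and 10.8 without 37C with no inhibitor A, for Col1a1 27.6 without 4C with inhibitor B and 100.8 without 4C with no inhibitor A, and for Gzmf 36.4 without 37C with inhibitor A. The SDs exceed the means for the collagens, chemokines, Bgn, Igfbp7 and Gzmf, so no typical library level can be read from them.

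At the other end, the mast cell proteases Mcpt4 (10.3 against 103.4 CPM, ratio 0.1), Cma1 (0.124), Tpsab1 (0.145), Cpa3 (0.158) and Tpsb2 (0.238) were among the genes of lowest ratio to annotated cells. So were Npnt, Cdon, F5 and Pdgfra, the last a gene of the fibroblast list (0.172 to 0.281). Annotated cells held 2676 UMIs of the mast cell or basophil list, of which 2625 lay in cells named macrophages. The mast cell and basophil share of annotated cells was 0.408%, 0.0128%, 0.758% and 0.0687% in the libraries at 37C and 0.00431%, 0.00902%, 0.954% and 0.023% at 4C, so 3 libraries hold most of it. Without 4C with no inhibitor A the ratio of Mcpt4 was 0.193, of Cma1 0.288, of Cpa3 0.373 and of Tpsb2 0.427, and without 37C with inhibitor B the ratios of these and of Tpsab1 were 0.0484 to 0.145. In unannotated barcodes it was 0.203% at 37C with inhibitor B and 0% to 0.109% in the other 7.

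Temperature was tested on the counts of unannotated barcodes summed per library, with all 4 groups in the fit. Some macrophage and most inflammatory genes tested rose at 37C, and the NK genes tested fell. Of 939 genes tested, 58 (6.18%) were called with edgeR's quasi-likelihood test at a Benjamini-Hochberg adjusted p under 0.05, 43 higher and 15 lower at 37C, and 4 of them are predicted or unmatched genes. DESeq2 called 39 genes, 21 higher and 18 lower, 34 of them among the 58. Without 37C with inhibitor A the count was 33, without 4C with inhibitor A 22, without 4C with inhibitor B 105, without 4C with no inhibitor A 93 and without 4C with no inhibitor B 164. Unannotated barcodes at 4C held 4568 to 29283 UMIs per library, against 47466 to 127166 at 37C, so that 1 UMI is worth far more CPM at 4C. Genes without UMIs at 4C, such as Il1b, or with 1, such as Arg1, could pass the count filter only through libraries at 37C. List counts and medians that hold such genes are therefore no separate support for a rise at 37C.

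Of 9 macrophage genes tested, 4 rose (Apoe, Arg1, Pf4 and Lyz2) and 0 fell, with a median log2 fold change of 2.63 against 0.14 over all genes. Arg1 (arginase 1, GRCm38 chr10:24915221-24927484), an enzyme of tumour macrophages, had 1576 and 1887 CPM at 37C with inhibitor, 1032 and 648.4 CPM at 37C with no inhibitor, 0 and 106 CPM at 4C with inhibitor, and 0 and 0 CPM at 4C with no inhibitor. The groups did not overlap (477 UMIs against 1, a pooled ratio of 78.9 with a counting interval of 14.1 to 3124; log2 6.55 ± 0.74 SE, adjusted p = 1.24e-05). Lyz2 had 1313, 3130, 1559 and 597.2 CPM in the 37C libraries, against 0, 0, 0 and 204.9 CPM at 4C (log2 6.33 ± 0.97 SE, adjusted p = 2.97e-04). Ccl6, a myeloid chemokine, rose as well (log2 6.20, adjusted p = 1.84e-05), as did Fcgr2b, an inhibitory antibody receptor, with 97 and 0 UMIs (at least 5.35-fold, adjusted p = 0.0115).

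The same genes differed in annotated cells and in low-count barcodes of these libraries. Arg1 averaged 1195 and 106.6 CPM in annotated cells at 37C and 4C, and 2129 and 252.4 CPM in low-count barcodes. Lyz2 averaged 1644 and 436.7 CPM in annotated cells, and 3976 and 520.7 CPM in low-count barcodes. The macrophage list as a whole took 0.701% ± 0.317 of UMIs at 37C and 0.113% ± 0.161 at 4C in unannotated barcodes (SD, n = 4 each), 0.669% ± 0.364 and 0.113% ± 0.0866 in annotated cells, and 1.18% ± 0.415 and 0.133% ± 0.033 in low-count barcodes. How far free RNA or the number of macrophages moved the values of unannotated barcodes was not tested.

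Of 11 inflammatory genes tested, 7 rose at 37C (Ccl3, Ccl4, Il1b, Ccl7, Ccl2, Cd14 and Cxcl2) and 0 fell, with a median log2 fold change of 3.94. Among the 7, Il1b, Cxcl2 and Cd14 had no UMIs or 1 UMI at 4C and entered the fit through the libraries at 37C. Il1b, which encodes the cytokine interleukin 1 beta, had 157.6 and 228 CPM at 37C with inhibitor, 1285 and 836.1 CPM at 37C with no inhibitor and 0 CPM in every library at 4C. With 154 UMIs against 0 it was at least 8.5-fold higher by a floor of 3 counts over the 4C group (log2 7.47 ± 1.23 SE, adjusted p = 7.57e-04). Cxcl2, a neutrophil attractant, had 164 and 0 UMIs (at least 9.05-fold, adjusted p = 0.0115). Ccl3 (GRCm38 chr11:83647844-83649355) had 304.6, 228, 3181 and 2713 CPM at 37C, against 0, 0, 271 and 0 CPM at 4C (log2 5.96 ± 0.95 SE, adjusted p = 4.36e-04). Its temperature groups overlapped: 37C with inhibitor B (228 CPM) lay below 4C with no inhibitor A (271 CPM, from 3 UMIs in 1 barcode). Cd14, a co-receptor for bacterial lipids, had 122 and 1 UMIs (log2 5.57, adjusted p = 0.00723). Without clusters 10 and 11, an alternative chosen after seeing the data, Il1b, Arg1, Lyz2, Ccl6, Fcgr2b and Cd14 kept their calls, Ccl3 lost it (log2 3.04, adjusted p = 0.42), and Cxcl2, Fosb and Dusp1 had too few counts to be tested.

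Immediate-early genes are switched on within minutes of a stimulus. Of 12 tested, 4 rose at 37C (Fosb, Fos, Dusp1 and Junb) and 0 fell, with a median of 1.90. Fosb had 67 and 0 UMIs (at least 3.7-fold, adjusted p = 0.0282), and Dusp1, a phosphatase of MAP kinases, 80 and 1 UMIs (adjusted p = 0.0348). Dusp1 lost its call without 4C with inhibitor A (adjusted p = 0.08), and Fosb lost it without 37C with inhibitor A and without 4C with inhibitor A (adjusted p up to 0.0657). Of 3 neutrophil genes S100a9 rose (log2 2.95, adjusted p = 0.048), and of 4 fibroblast and 3 heat shock genes none was called. Of 73 ribosomal protein genes 1 rose (Rps27a), with a median of 0.20, and Gm42418 rose by 0.62 on the log2 scale (adjusted p = 0.0423).

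Among lymphocyte genes, all 3 NK genes tested fell at 37C (Nkg7, Gzmb and Gzma; median -1.71), as did 1 of 5 T cell genes (Trbc2; median -1.78). Gzma, a granzyme of cytotoxic cells, had 325.6 and 251.6 CPM at 37C with inhibitor, 463.5 and 494.8 CPM at 37C with no inhibitor, 6349 and 2756 CPM at 4C with inhibitor, and 1807 and 1264 CPM at 4C with no inhibitor. No library at 37C reached the lowest at 4C (114 against 112 UMIs in all; log2 -2.60 ± 0.29 SE, adjusted p = 1.24e-05). Ccl5 (GRCm38 chr11:83525778-83530518), a T and NK cell chemokine, had a log2 fold change of -2.26 (adjusted p = 7.31e-05), and Ms4a4b, a membrane protein of T cells, one of -2.87 (adjusted p = 7.31e-05). In annotated cells Gzma averaged 455.5 and 1309 CPM at 37C and 4C, and in low-count barcodes 1019 and 2635 CPM, so the lower level at 37C was shared by all 3 classes.

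The other named decreases were Cnp, Sept6, Rab8a, Ifngr1, Ptprcap, Rac2 and Trbc2, with log2 fold changes of -3.67 to -1.78 and adjusted p of 0.0161 to 0.0468. Each of these 7 lost its call without at least 3 of the 8 libraries in turn, with adjusted p of up to 0.47 for Ifngr1. Sept6 and Cnp rest on 22 and 21 UMIs. Of the 20 named genes of this contrast, 11 kept the call in every fit without 1 library in which they were tested, among them Il1b, Arg1, Lyz2, Gzma and Ccl5.

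**Figure D5:**
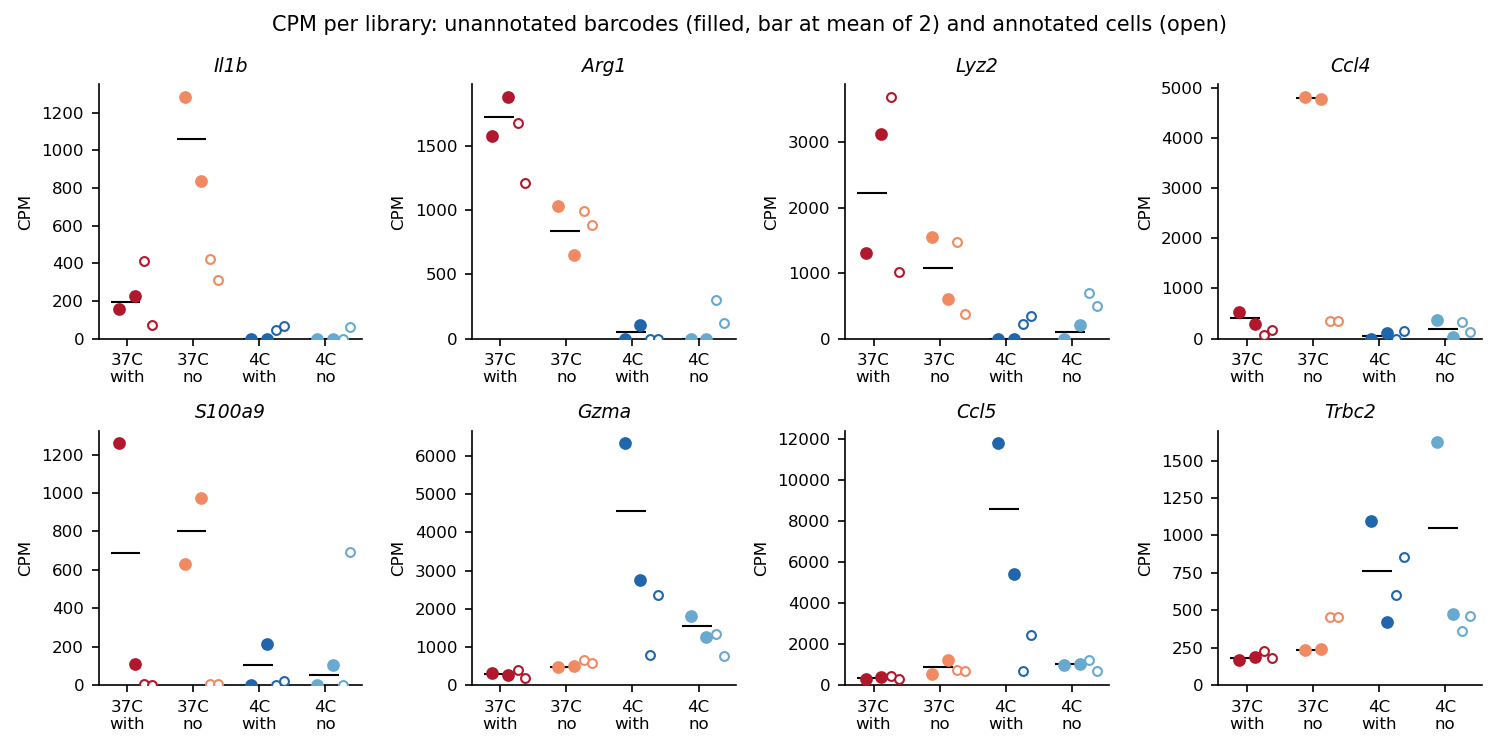
Each panel gives the CPM of 1 gene by condition, with a filled point for the unannotated barcodes and an open point for the annotated cells of each library, and a line at the mean of the 2 filled points. Arg1 and Il1b are at or near 0 at 4C, whereas Gzma and Ccl5 have their highest values in the libraries at 4C with inhibitor.

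At 37C the inhibitor was set against its absence within the same fit. Genes of inflammatory chemokines and cytokines were among the few that fell with inhibitor. Of 939 genes, 10 (1.06%) were called with edgeR's quasi-likelihood test, all lower with inhibitor. Of 11 inflammatory genes 6 fell (Ccl3, Ccl4, Il6, Il1b, Ptgs2 and Cxcl2; median -2.45 against 0.02 over all genes, highest 0.66), of 12 immediate-early genes 2 fell (Ier3 and Klf2; median -1.83), and of 9 macrophage genes none was called (median 1.22). Il6, Il1b and Cxcl2 had no UMIs at 4C and were highest at 37C with no inhibitor, the condition through which they could pass the count filter. The inflammatory count and median are therefore no separate support for a fall with inhibitor. The remaining calls were Il4 and Vps37b, an endosomal sorting subunit. The count was 5 without 37C with inhibitor A, 16 and 24 without 4C with inhibitor A and B, and 52 without either library of 4C with no inhibitor.

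Ccl4 (GRCm38 chr11:83662584-83664683), a macrophage inflammatory chemokine, had 525.2 and 291 CPM with inhibitor and 4825 and 4778 CPM with no inhibitor (87 against 509 UMIs; log2 -3.61 ± 0.37 SE, adjusted p = 3.67e-06). Ccl3 had 304.6 and 228 CPM with inhibitor and 3181 and 2713 CPM with none (log2 -3.50 ± 0.42 SE, adjusted p = 3.01e-05). Il4 had 1 UMI with inhibitor and 56 with none, a ratio of 0.00852 with a counting interval of 2.12e-04 to 0.0494 (adjusted p = 4.40e-04). In each of the 3 genes the aliquots of a condition lay on the same side of the other condition.

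Il6 had 94.5 and 0 CPM with inhibitor and 863.8 and 341.3 CPM with none (log2 -3.76, adjusted p = 0.026; 0.202 without 37C with inhibitor B). Cxcl2 had 115.5 and 228 CPM with inhibitor and 421.4 and 1775 CPM with none (log2 -2.71, adjusted p = 0.0241), and its adjusted p reached 0.999 among the fits without 37C with inhibitor A or without 37C with no inhibitor B. Ier3, an early stress response gene, had 283.6 and 173 CPM with inhibitor and 1770 and 938.5 CPM with none (log2 -2.60, adjusted p = 0.0036), and Il1b fell by 2.45 (adjusted p = 0.00371).

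These values rest on the few barcodes of cluster 11 to different degrees. In the fit without clusters 10 and 11, 12 genes were called, 6 higher and 6 lower with inhibitor, and 4 of them were among the 10. Ccl4 kept its call (log2 -2.96, adjusted p = 7.60e-06) and Ccl3 lost it (log2 -1.91, adjusted p = 0.641), while Il4, Il6 and Cxcl2 had too few counts to be tested. Klf2, in contrast, had UMIs in 96 barcodes, of which the 5 highest held 12.6%.

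At 4C, 1 of 939 genes (0.106%) was called: Ccl5 was higher with inhibitor (11821 and 5406 CPM with inhibitor, 993.8 and 1024 CPM with none; log2 2.83 ± 0.44 SE, edgeR adjusted p = 0.00246). The 105 UMIs with inhibitor came from 15 barcodes. Without 4C with inhibitor A its adjusted p was 0.666 (log2 2.11), and the count of calls was 0. Without other libraries the count was 3 (37C with inhibitor A), 4 (37C with inhibitor B, 37C with no inhibitor A or 4C with no inhibitor A) or 16 (4C with no inhibitor B).

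The interaction, the inhibitor effect at 37C minus that at 4C, was also called in 1 of 939 genes (0.106%), again Ccl5, with a difference of -4.30 ± 0.60 SE on the log2 scale (edgeR adjusted p = 4.87e-04). At 37C Ccl5 had 273.1 and 377.5 CPM with inhibitor and 526.7 and 1212 CPM with none, the opposite order to 4C. Without 4C with inhibitor A the difference was -3.59 (adjusted p = 0.0861) and no gene was called. Counts of calls without other libraries were 3 (37C with inhibitor B), 4 (37C with no inhibitor A), 7 (4C with no inhibitor A) and 8 (4C with no inhibitor B).

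Whether the temperature difference was of one size in unannotated barcodes and annotated cells was tested as a class by temperature term over 2145 genes, of which 5 (0.233%) were called with edgeR's quasi-likelihood test, each with the larger 37C over 4C change in unannotated barcodes. The 3 largest differences were in granulocyte genes. S100a9 (GRCm38 chr3:90692632-90695721) had 1260, 110.1, 632 and 972.6 CPM at 37C and 0, 212, 0 and 102.4 CPM at 4C in unannotated barcodes, against 5, 0, 6.32 and 6.08 CPM at 37C and 0, 22.6, 0 and 690.7 CPM at 4C in annotated cells. The difference was 8.97 ± 0.92 SE on the log2 scale (adjusted p = 2.76e-08). The high annotated value at 4C came from 1 library, and without 4C with no inhibitor B the difference was 4.45 with adjusted p = 0.497.

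S100a8 (GRCm38 chr3:90668978-90670035) had 724.7, 70.8, 463.5 and 443.6 CPM at 37C and 0, 106, 0 and 68.3 CPM at 4C in unannotated barcodes, with a difference of 7.91 ± 1.04 SE from annotated cells (adjusted p = 5.59e-06), which was 1.30 (adjusted p = 0.948) without 4C with no inhibitor B. Mcpt8 had a difference of 7.93 ± 1.22 SE (adjusted p = 8.90e-05), and 5.80 (adjusted p = 0.163) without 4C with no inhibitor A, whose annotated cells had 739.7 CPM. All 3 granulocyte differences therefore depend on 1 library of annotated cells.

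Ccl4 differed by 3.85 ± 0.79 SE (adjusted p = 0.00962) and Spp1, the secreted phosphoprotein osteopontin, by 2.21 ± 0.46 SE (adjusted p = 0.00962). Spp1 had 2983, 2941, 2233 and 2013 CPM at 37C and 0, 954, 361.4 and 1810 CPM at 4C in unannotated barcodes, against 1821 ± 438.1 CPM at 37C and 2463 ± 728.9 CPM at 4C in annotated cells (SD, n = 4 each). The calls of these genes were lost without 5 and 3 of the 8 libraries in turn, with adjusted p of up to 0.14 and 0.141. The 5 calls came down to 3, 2 and 3 without 4C with inhibitor A, 4C with no inhibitor A and 4C with no inhibitor B. Without clusters 10 and 11 Ccl4 lost its call (1.77, adjusted p = 0.561), while Spp1 (2.15), S100a9 (6.83), S100a8 (6.72) and Mcpt8 (6.37) kept theirs.

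Temperature differences of macrophage and lymphocyte genes were not called as different between the classes. Il1b had a difference of 5.96 ± 2.56 SE (adjusted p = 0.621) and averaged 303.7 ± 162.8 CPM at 37C and 43 ± 30.5 CPM at 4C in annotated cells (SD, n = 4 each). With an SE of that size, a miss of the threshold does not show that the classes moved alike.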

How the data were processed

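Single-cell RNA-seq libraries (SureCell 3' kit, ddSEQ) were made from 8 aliquots, 2 in each of 4 conditions. The deposited tables hold raw counts of UMIs per gene and barcode, and a deposited annotation names 4 cell types. Per the submitters' processing notes, UMI-tools, STAR 2.7.1a, featureCounts 1.6.0, SAMtools and Seurat were used with GRCm38; the sources used here give neither their settings nor the barcode listing rule, cell filters, doublet treatment and naming of types. The authors' log-scaled table of annotated cells was not used. A GENCODE annotation of GRCm38 gave symbols for 17520 of 17580 gene identifiers (12505 with the same version).

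Barcodes were matched to the annotation by barcode and library. The unannotated set and all gene lists were chosen with earlier results of these data known. No doublet caller was run on barcodes of so few UMIs. Counts were summed per library and class, filtered by filterByExpr, scaled by TMM and fitted with edgeR 4.0.16 (quasi-likelihood, two-sided; R 4.3.3), with Benjamini-Hochberg adjustment over all genes of a fit. The model was tested on simulated data. Alternatives were DESeq2 1.42.0, RLE factors, no filter, other UMI ranges, a block by aliquot letter, summed aliquots and each library left out. CPM is counts scaled to 1000000 UMIs of a class.

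Library measures used exact permutation tests over 70 arrangements. Clusters used Scanpy 1.11.5 on log counts per 10000 with 1000 variable genes, 15 components, 15 neighbours and resolution 1. Thinning drew 200 UMIs per barcode once with a fixed seed. Python 3.11.15, NumPy 2.4.6, SciPy 1.17.1, pandas 2.3.3 and Matplotlib 3.10.9 were used. Intervals and floors (3 counts) cover counting error only.

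Aliquots of a suspension differed by more than counting noise (chi-square per degree of freedom 1.62 to 2.75), and each counted as 1 library. Named genes were the 10 largest changes in each direction for temperature and for low-count barcodes, 5 in each direction for the other contrasts, taken from called genes whose log2 CPM averaged 5 or more. Against annotated cells they were the 20 genes of highest level and the 10 highest and 10 lowest ratios among genes of at least 100 counts, not all of which are reported here; list members could be named whatever their call. Erythroid markers had no gene in the tables.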

Additional observations from a re-analysis of the deposited data

Results flagged for a closer look

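With 4 libraries per temperature, the highest or lowest library stood apart by Dixon's criterion in 7 of 58 groups of values tested, where chance flags about 1 in 20 groups. Unannotated barcodes held 20.5% of library UMIs in 37C with inhibitor B, above the other 3 libraries at 37C. Barcodes without annotation made up 50.3% of those in the UMI range in 4C with no inhibitor B, above the other 3 at 4C. Shares of UMIs from marker genes stood apart in 4 cases: mast cell or basophil genes in 37C with inhibitor B (0.203%), fibroblast genes in 4C with inhibitor B (0.509%), and pericyte genes (0.515%) and dendritic cell genes (0.0542%) in 4C with no inhibitor A. Heat shock genes took 0.329% in 37C with no inhibitor B, above the other 3 at 37C.

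The effect of the inhibitor on Ccl5 differed between temperatures, by -4.30 on the log2 scale. The effect of temperature differed between unannotated barcodes and annotated cells in S100a9 (8.97), Mcpt8 (7.93), S100a8 (7.91), Ccl4 (3.85) and Spp1 (2.21), and each of these calls was lost without at least 1 library, as reported above.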

How the results depend on the processing

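The number of called genes moved with the settings. For temperature (58) it was 177 with no filter on low counts, 10 in barcodes of 300 to 5000 UMIs, 28 in those of 200 to 500, and 22 to 164 when a library was left out. For the inhibitor at 37C (10) it was 5 with DESeq2, 26 with no filter, 5 for 300 to 5000 UMIs, 22 for 200 to 2000, 1 for 200 to 500, and 5 to 52 without a library. For the inhibitor at 4C (1) it was 0 with no filter and for 300 to 5000 UMIs, 3 for 200 to 2000, and 0 to 16 without a library. For the interaction (1) it was 0 for 300 to 5000 UMIs, 2 for 200 to 500, and 0 to 8 without a library. Against low-count barcodes (991) it was 302 for 200 to 500 UMIs and 666 to 1091 without a library. For the difference from annotated cells (5) it was 1 with DESeq2, 9 with no filter and 2 to 6 without a library. The cause of these shifts was not tested. The ranges of 200 to 500 UMIs and the fits without clusters 10 and 11 were chosen after seeing the data.

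Aliquot letters do not pair the libraries: deviations of same-letter aliquots correlated between -0.279 and 0.274 over pairs of conditions. With a replicate block by letter the counts were 52, 8, 1 and 1 for temperature, the inhibitor at 37C and 4C and the interaction, and 11 for the difference from annotated cells. With aliquots summed, temperature had 48 calls.

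Differences between 37C and 4C without a library ranged from 76.4 to 116.4 unannotated barcodes, 0.804 to 4.75 percentage points of library UMIs, 13.4 to 21 points without annotation, -0.792 to 3.88 genes at 200 UMIs and -0.0202 to 0.0386 points of mitochondrially encoded RNA. The gene number turned to -0.25 without 37C with inhibitor B and to -0.792 without 4C with inhibitor A, and the mitochondrially encoded share to -0.00401 without 37C with no inhibitor A and to -0.0202 without 4C with inhibitor A. With 2 UMIs of any gene in place of 3 from 2 genes, unannotated barcodes carried the tumour epithelial list in 22.3%, macrophage 44.1%, T cell 12.2%, NK 12.1%, neutrophil 7.33%, dendritic 3.88%, mast cell or basophil 9.63% and fibroblast 3.74%. From 300 UMIs up, 11.5% carried the epithelial and 38.4% the macrophage list. Clusters numbered 8 at resolution 0.5. No named gene turned its direction in any alternative, and 108 of the alternatives for named genes lost the call. Few UMIs at 4C limit every contrast with it.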
